A study of Mus musculus with 6 samples.

Results

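Fgf2 and 9 further genes of growth factor signalling were examined in tumour-associated macrophages: the ligand genes Vegfa, Vegfb, Pgf, Pdgfa, Pdgfb, Hbegf and Igf1, and the receptor genes Fgfr1 and Flt1. They were listed by symbol, each matched 1 Ensembl gene of GRCm38, and they are 10 of 55487 genes counted. All 10 passed the filter on low counts that 14140 genes passed. By edgeR, Fgf2 was the only one called, as higher under the MHC-II high label, while Vegfa, the most abundant of the 10 per length, showed no detectable difference.

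Fibroblast growth factor 2 (FGF2) is a heparin-binding mitogen of endothelial cells and fibroblasts that leaves cells without a classical signal peptide and acts through FGF receptors with heparan sulphate as a cofactor. Vascular endothelial growth factor A, whose gene is induced in hypoxia, drives vessel sprouting through the receptor KDR, and FLT1 binds VEGF-A, VEGF-B and placental growth factor. Platelet-derived growth factors recruit pericytes and fibroblasts, HB-EGF activates the EGF receptor after shedding from the membrane, and IGF1 supports growth and survival. Macrophages of tumours are a known source of several of these ligands.

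The macrophages came from Lewis lung carcinoma, a transplantable mouse lung tumour line, implanted subcutaneously into C57BL/6 mice, and tumours were taken on days 15 to 17. Cells carrying CD11b and F4/80 and lacking Ly6C and Ly-6G were split by their surface MHC class II, giving 3 libraries under the MHC-II high label and 3 under MHC-II low, with batch numbers 1 to 3. No genotype or drug separated the groups, and nothing in the labels says that libraries of 1 label came from separate mice, so the spread that p-values measure here may be only technical. The 6 libraries held 10202879 to 25473051 reads in genes. Transcripts of MHC class II went against the labels in all of them. The 8 genes of that list summed to 79.2 to 93.9 CPM (read counts scaled to library size with TMM factors) in the libraries labelled high and to 4588 to 9221 CPM in those labelled low, and all 7 tested ones, Cd74, H2-Aa, H2-Eb1 and H2-Ab1 among them, were called lower under the high label. Each direction below is therefore that of the libraries as labelled. Labelled low replicate 3 differed from the other libraries, with 47.3% of its reads in an rRNA copy against 3.85% to 13.5% elsewhere, and it had the steepest rise of CPM with GC content. Macrophage genes were abundant in every library, with Csf1r at 769 ± 82.1 CPM under the high label and 1106 ± 345 CPM under the low label (SD, n = 3 each), and Ly6g, which encodes part of the gate, had 0 reads throughout.

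Sequence before the transcription start is shown for the called gene Fgf2, for Igf1, the other gene with a positive fold change, for Pgf, with a negative one, and for Vegfa, the most abundant. The lines give 30 bases of RefSeq sequence (GRCm38.p6), 5′ to 3′ on the gene's strand, around the GC box nearest the start, or, for Igf1, which had none, the 30 bases before the start. Capitals mark GC boxes, GGGCGG or its complement CCGCCC.
Fgf2, chr3:37348592-37348621, plus strand: aggcggcgcgcgGGGCGGgggcgcacgggg
Vegfa, chr17:46032422-46032451, minus strand: cgGGGCGGgtctGGGCGGggcttgggggtg
Pgf, chr12:85177327-85177356, minus strand: caggctgcagccCCGCCCcatacacggtct
Igf1, chr10:87861081-87861110, plus strand: ctattctggatagccgagatagatagccat

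The table of promoters held 7 of the 10 genes, without Fgfr1, Pdgfb and Hbegf. Vegfa, Pgf and Pdgfa had 2 starts each in it, and the most upstream was used. Over the 250 bases before the start, GC boxes were matched 1 time for Fgf2, 2 times for Vegfa, 2 for Pgf and 0 times for Igf1, and 32.7% of 32851 such windows held at least 1. A hypoxia response core, read as ACGTG or GCGTG on either strand, was matched once for Fgf2, Pgf and Igf1 each and 0 times for Vegfa, against 38.6% of all windows with a match. Sequence beyond the 250 bases was not searched, so the 0 for Vegfa holds for this window only. GC content of the window was 62.4% for Fgf2, 59.2% for Vegfa, 68.4% for Pgf and 52.8% for Igf1, with a median of 52.4% over all windows. These are matches of letters and say nothing of binding. The stretches shown for Fgf2, Pgf and Igf1 overlap GENCODE exons of the same genes.

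Fgf2 spans chromosome 3 from 37348346 to 37410108 on the plus strand (GRCm38, as below). Replicates 1 to 3 labelled MHC-II high had 9.07, 6.95 and 9.47 CPM, against 1.12, 1.59 and 1.61 CPM in those labelled low. The lowest library labelled high stood far above the highest labelled low, so the groups did not overlap. The values rested on 163, 156 and 265 reads under the high label and on 21, 39 and 9 reads under the low label. For labelled low replicate 3, the exact Poisson 95% interval of those 9 reads was 0.734 to 3.05 CPM, which is counting error only and stays below every library labelled high. The log2 fold change, labelled high over labelled low, was 2.58 with a standard error of 0.29, a 95% interval of 1.91 to 3.24 and an adjusted p of 0.0161 by edgeR's quasi-likelihood test with Benjamini-Hochberg adjustment. Within batches 1, 2 and 3 the log2 ratios were 2.91, 2.06 and 2.49, so each batch had the same direction. In bulk samples such as these, fewer cells carrying a transcript and less transcript per cell cannot be told apart.

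Of the 10 genes, 1 was called, against 0.446% of all tested genes in either direction and 0.0919% on the higher side. Fgf2 had the largest fold change of the 13 genes called higher, a known result when the 10 genes were listed, so this share is a description. The call did not hold in every subset of the libraries. The edgeR adjusted p was 0.0817, 0.0707 and 0.0642 without labelled high replicate 1, 2 or 3 and 0.12 without labelled low replicate 1. It was 0.00551 and 0.0202 without labelled low replicate 2 or 3. Of all genes, 246 were called higher without labelled low replicate 2, and 0 without labelled low replicate 1 or any labelled high replicate. Over these 6 fits the log2 fold change stayed between 2.42 and 2.75. With the batch as a block it was 2.55 (edgeR adjusted p 0.0392), and Fgf2 was then the only gene of all called higher (0.00707% of those tested, beside 0.283% lower and 0.29% in all).

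**Figure D1:**
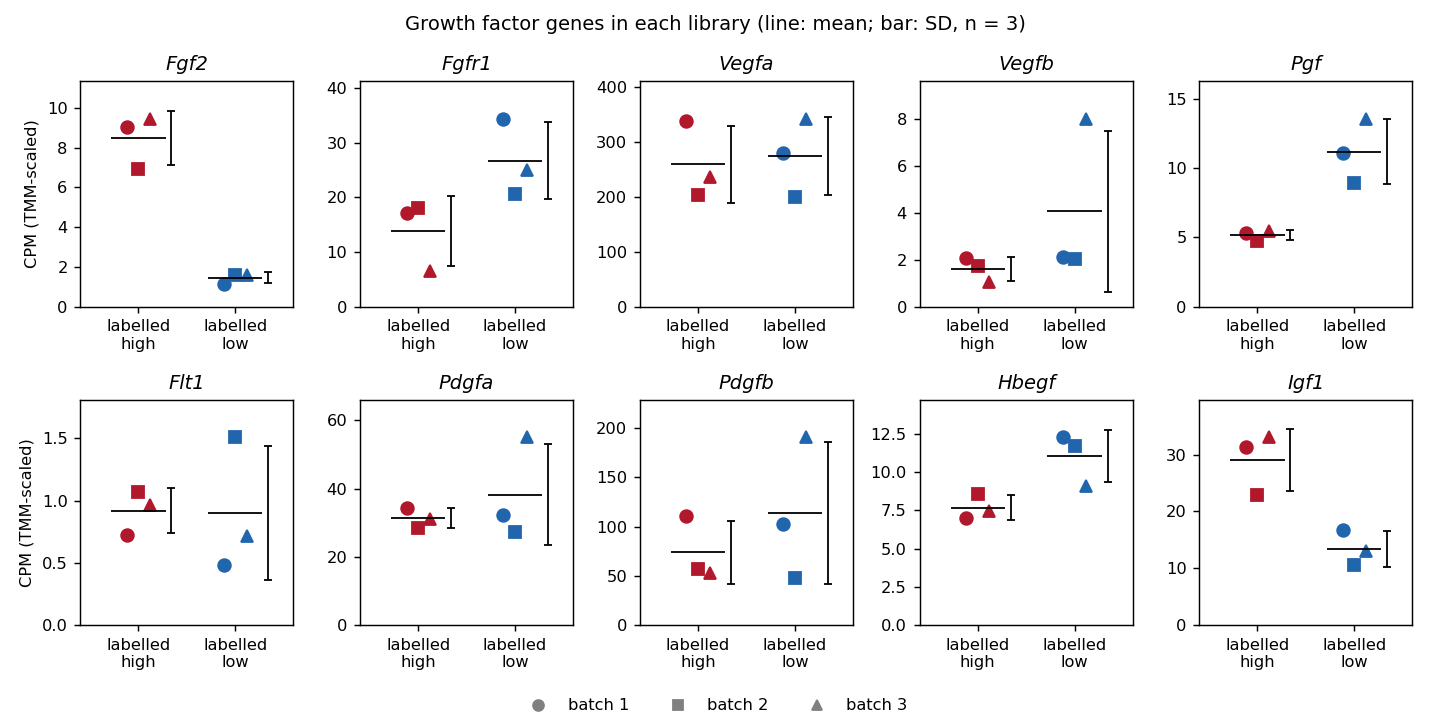
CPM of the 10 genes in each library, labelled MHC-II high at left and labelled MHC-II low at right; symbols mark batches, lines the means and bars the SD (n = 3). The 3 libraries labelled high lie between 6.95 and 9.47 CPM for Fgf2, all above those labelled low, whereas Vegfa, Vegfb, Flt1, Pdgfa and Pdgfb overlap between labels.

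A scale that uses no library size was the number of Fgf2 reads per 1000 reads of Csf1r, the receptor gene of macrophage colony-stimulating factor. It was 10.6, 9.12 and 13.7 in the libraries labelled high, against 0.965, 2.16 and 1.13 in those labelled low. Here too the groups did not overlap. The difference in mean log2 ratio, high minus low, was 3.01, with a two-sided exact permutation p of 0.1, the smallest that 3 against 3 libraries allow. The same difference was 1.62 with Adgre1, which encodes F4/80, as the denominator and 2.77 with Cd68, a lysosomal glycoprotein gene (exact permutation p of 0.1 for each). Adgre1 and Csf1r themselves lay on opposite sides, with log2 fold changes of 0.90 and -0.52 and edgeR adjusted p values of 0.132 and 0.44. Of 15 macrophage and gate markers edgeR called 0. DESeq2 called 2, Adgre1 and Lyz2, both higher, beside 0.693% of all genes called on that side.

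Nudt6 lies on the opposite strand and shares 640 exonic bases with the end of Fgf2, and the strand setting of the counting is not given in the sources used here. This leaves the values of both uncertain to a degree that was not tested. Nudt6 stood at 3.06, 3.88 and 3.07 CPM in the libraries labelled high, against 1.97, 2.41 and 2.86 CPM in those labelled low. The ranges did not overlap, but the log2 fold change of 0.49 was not called (edgeR adjusted p 0.476). In CPM, Nudt6 was above Fgf2 in each library labelled low and below it in each labelled high. Fgf2os, the antisense RNA annotated at the start of Fgf2, had 1 read in all. The neighbours Spata5 and Bbs12 had log2 fold changes of 0.17 and 0.23 and were not called (edgeR adjusted p values of 0.732 and 0.770).

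Fgfr1, an FGF receptor gene on chromosome 8 (25513654 to 25575718, plus strand), was read at 17.2, 18 and 6.51 CPM in the 3 libraries labelled high, against 34.4, 20.6 and 25 CPM in those labelled low. Labelled high replicate 3 was by far the lowest, and the next 2 came close to labelled low replicate 2. Its log2 fold change of -0.94 (standard error 0.39, 95% interval -1.84 to -0.05) was not called, with an edgeR adjusted p of 0.405. Its batch ratios were -1.0, -0.19 and -1.92, and without labelled high replicate 3 the value was -0.60. The other receptor genes Fgfr2, Fgfr3 and Fgfr4 and the co-receptor genes Kl and Klb had 0 reads in all 6 libraries. Fgfrl1, an FGF receptor without a kinase domain, stood at 1.03 ± 0.268 CPM under the high label and 1.66 ± 0.877 CPM under the low label.

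Among 22 FGF ligand genes 12 had 0 reads and 5 were tested, with Fgf2 the only one called. Fgf11, an intracellular FGF homologue that is not secreted, stood at 3.09 ± 1.14 CPM under the high label and 5.39 ± 1.17 CPM under the low label (log2 fold change -0.82, edgeR adjusted p 0.412). Fgf7, the keratinocyte growth factor of mesenchymal cells, was at 2.03 ± 1.10 and 2.12 ± 2.23 CPM under the high and the low label, a spread wider than any difference. Fgf13, another intracellular homologue, was under the 1 CPM set for naming genes and is given after its values were seen. It had 0.167, 0.223 and 0.286 CPM in labelled high and 0.959, 0.654 and 1.07 CPM in labelled low libraries. The ranges did not overlap, on 16 against 40 reads in all, and the log2 fold change of -1.87 (standard error 0.48) was not called (edgeR adjusted p 0.197). The median log2 fold change of the 5 tested ligands was -0.35, beside -0.02 over all tested genes.

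Vegfa was the most abundant of the 10 genes per length in every library. It spans chromosome 17 from 46016993 to 46032369 on the minus strand. Its level was 339, 204 and 236 CPM in the 3 libraries labelled high, against 280, 200 and 343 CPM in those labelled low. The highest library of each label and the lowest of each label were nearly equal, and batch 2 was lowest under both. No difference between the labels was detected. The log2 fold change was -0.08 with a 95% interval of -0.69 to 0.53, which holds values of either sign (edgeR adjusted p 0.888). Its sign was not stable, as 6 alternatives gave a positive value, up to 0.30 with total counts. Total counts alone moved the median of all tested genes to 0.25 from -0.02, and other settings kept it within -0.04 and 0.04.

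Vegfb, a ligand of FLT1 encoded on chromosome 19 (6982473 to 6987651, minus strand), depended on a single library. Its level was 2.06, 1.74 and 1.04 CPM in the libraries labelled high, against 2.13, 2.04 and 8.03 CPM in those labelled low, where replicate 3 alone was high. Its log2 fold change of -1.23 (edgeR adjusted p 0.432) was -0.39 without that library, and the batch ratios were -0.05, -0.22 and -2.84.

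Pgf, which encodes placental growth factor on chromosome 12 (85166635 to 85177790, minus strand), was the member with the clearest values on the lower side. It stood at 5.29, 4.77 and 5.47 CPM in the libraries labelled high, against 11.1, 8.91 and 13.6 CPM in those labelled low. The groups did not overlap and all 3 batch ratios were negative, at -1.05, -0.89 and -1.29. The log2 fold change was -1.10 with a standard error of 0.24 and a 95% interval of -1.66 to -0.54. The edgeR adjusted p of 0.14 missed the threshold of 0.05, as it did with the block (0.249). DESeq2 called Pgf with 0.0129, and edgeR did so without labelled low replicate 2 (0.0317). That edgeR fit called 246 genes higher and 784 lower of all 14378 in it, against 13 and 50 in the main fit. Under DESeq2 3 of the 10 genes were called, Fgf2 and Igf1 as higher and Pgf as lower, against 2.42% of the genes with an adjusted p (0.693% higher and 1.72% lower).

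Flt1, a VEGF receptor gene on chromosome 5 (147561604 to 147726011, minus strand), was the lowest of the 10 at 0.723, 1.07 and 0.965 CPM in the libraries labelled high, against 0.48, 1.51 and 0.714 CPM in those labelled low. These rest on 64 and 50 reads in total. The 95% interval of the log2 fold change ran from -1.17 to 1.10, so a difference within it in either direction remains possible. Gene counts do not separate the membrane receptor from its soluble form. Of the other VEGF receptors, Kdr stood at 13.4 ± 2.16 CPM under the high label and 8.38 ± 2.18 CPM under the low label (log2 fold change 0.70, edgeR adjusted p 0.384). Nrp1, the co-receptor neuropilin 1, stood at 70.4 ± 3.69 and 44.9 ± 14.4 CPM under the high and the low label (0.65, edgeR adjusted p 0.382). Both had ranges that did not overlap. Vegfc and Vegfd, ligands of lymphatic vessels, had low and overlapping values. Vegfc averaged 2.00 ± 0.439 CPM in labelled high and 1.32 ± 0.291 CPM in labelled low libraries, and Vegfd 1.54 ± 1.02 and 1.78 ± 1.09 CPM.

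**Figure D2:**
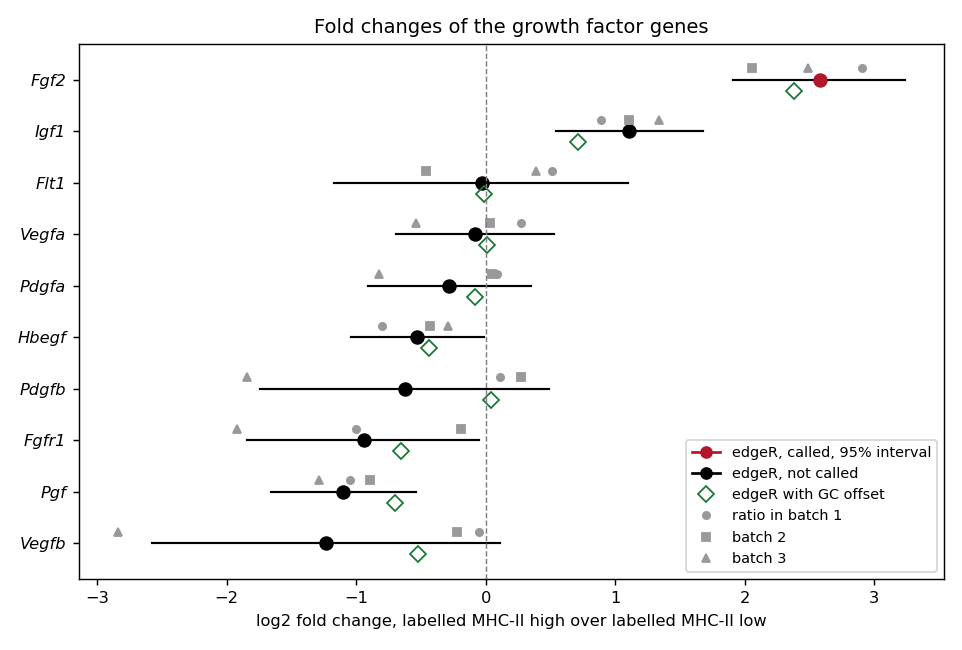
Log2 fold change, labelled MHC-II high over labelled MHC-II low, of the 10 genes. Filled circles with lines are edgeR values with 95% intervals (red: called), diamonds the edgeR values with the GC offset, and grey symbols the ratios within batches 1 to 3. Fgf2 stands at 2.58 and Igf1 at 1.11, and the 3 batches spread widely for Vegfb, Pdgfb and Fgfr1.

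The PDGF ligand genes were the next most abundant and showed no call. Pdgfb (chromosome 15, 79995874 to 80014977, minus strand) was counted at 111, 57 and 53.3 CPM in the 3 libraries labelled high, against 103, 47.3 and 191 CPM in those labelled low. The labels overlapped broadly, and in batches 1 and 2 the values were close, with log2 ratios of 0.11 and 0.27, against -1.84 in batch 3. Its log2 fold change was -0.62 (edgeR adjusted p 0.545), 0.04 with the GC offset and -0.03 without labelled low replicate 3. Pdgfa (chromosome 5, 138976014 to 138997370, minus strand) stood at 34.3, 28.4 and 31.1 CPM in the libraries labelled high, against 32.2, 27.4 and 55.1 CPM in those labelled low. Again labelled low replicate 3 alone was high, and the log2 fold change of -0.28 (95% interval -0.91 to 0.35, edgeR adjusted p 0.612) was 0.07 without it. An antisense gene, 6330403L08Rik, shares 813 exonic bases with Pdgfa. As for Fgf2 and Nudt6, the strand setting is not given, which leaves the values of both uncertain to a degree that was not tested.

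Platelet and megakaryocyte markers, from cells that also carry PDGF, summed to 21.3 to 22.7 CPM in the libraries labelled high and 22.8 to 40.5 CPM in those labelled low, and of 4 tested 0 were called by edgeR, DESeq2 or limma-voom, with 0 at an unadjusted p under 0.05. Their part in the PDGF values was not tested. Gp9 and Gp1bb, parts of a platelet receptor, had 0 reads. Pdgfc, a further ligand gene, stood at 6.05 ± 0.549 CPM under the high label and 5.92 ± 1.66 CPM under the low label. The receptor genes Pdgfra and Pdgfrb, mainly of mesenchymal cells, averaged 12.3 ± 8.95 and 2.34 ± 1.5 CPM in labelled high and 13.0 ± 8.97 and 3.24 ± 0.428 CPM in labelled low libraries.

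Hbegf was read at 7.01, 8.60 and 7.44 CPM in the 3 libraries labelled high, against 12.3, 11.7 and 9.10 CPM in those labelled low. The groups were adjacent without overlap, at most 8.60 CPM if labelled high and at least 9.10 CPM if labelled low. Its log2 fold change of -0.53 (standard error 0.22, 95% interval -1.04 to -0.01) was not called (edgeR adjusted p 0.408), and its batch ratios were -0.80, -0.43 and -0.29. Adam17, the main sheddase of HB-EGF, stood at 295 ± 27.5 CPM under the high label and 214 ± 53.1 CPM in labelled low libraries, and Adam10, a related protease gene, at 336 ± 44.7 and 224 ± 59.8 CPM. Nrg1, an EGF-like ligand of ERBB receptors, stood at 1.23 ± 0.364 and 3.55 ± 1.08 CPM (log2 fold change -1.55, edgeR adjusted p 0.159, DESeq2 0.0271).

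Igf1 was the only other member with a positive log2 fold change by edgeR. It lies on chromosome 10 (87858265 to 87937042, plus strand) and stood at 31.3, 22.9 and 33.1 CPM in the 3 libraries labelled high, against 16.8, 10.5 and 13 CPM in those labelled low. Every library labelled high was above every library labelled low. The log2 fold change was 1.11 with a standard error of 0.25, a 95% interval of 0.54 to 1.68 and batch ratios of 0.89, 1.11 and 1.34. The edgeR adjusted p of 0.143 missed the threshold, as it did with the block (0.193) and under the GC offset, which lowered the value to 0.71 (0.309). DESeq2 called Igf1 with 0.0074, and edgeR did so without labelled low replicate 2 (0.0473). That edgeR fit called 246 of all 14378 genes in it higher, against 13 genes in the main fit. Igf1r, its receptor gene, lay on the other side, at 21.3 ± 1.84 CPM under the high label and 36.1 ± 8.26 CPM under the low label (log2 fold change -0.75, edgeR adjusted p 0.257). Igf2r, a receptor that clears IGF2 and carries lysosomal enzymes, stood at 277 ± 33.2 and 164 ± 14.7 CPM (0.76, edgeR adjusted p 0.154, and 0.00676 with the GC offset). Igf2 had 0 reads.

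In all, 5 of the 10 genes had ranges that did not overlap between the labels, Fgf2 and Igf1 on the higher side and Fgfr1, Pgf and Hbegf on the lower side. Over all tested genes 19.9% had such ranges, 10.5% on the higher and 9.48% on the lower side. The same 5 genes had an unadjusted p under 0.05 by edgeR, 2 of them higher and 3 lower, as did 12.1% of all tested genes, 4.06% higher and 7.99% lower. The 10 genes were listed with earlier results known, so the excess over these shares is not a finding about them. Their median log2 fold change was -0.40, beside -0.02 over all tested genes.

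The order of the genes was taken per length, as CPM per kb of exon. Under the high label, Vegfa averaged 60.5 ± 16.4, Pdgfb 17.7 ± 7.7, Pdgfa 10.0 ± 0.94 and Igf1 2.94 ± 0.553 CPM per kb, each above the highest library of the next. Pgf at 1.78, Hbegf at 1.59, Fgfr1 at 1.41, Fgf2 at 1.25 and Vegfb at 1.00 CPM per kb followed, with ranges that overlapped between neighbours, and Flt1 was lowest at 0.0681. In the libraries labelled low, Vegfa averaged 64.0 ± 16.7, Pdgfb 27.3 ± 17.4 and Pdgfa 12.3 ± 4.75 CPM per kb, and Pdgfb and Pdgfa overlapped. Pgf at 3.85, Fgfr1 at 2.70, Vegfb at 2.53 and Hbegf at 2.28 overlapped as neighbours, followed by Igf1 at 1.36, Fgf2 at 0.212 and Flt1 at 0.0668 CPM per kb, each apart from the next. Fgf2 made up 1.05% to 1.6% of the summed level of the 10 genes in the libraries labelled high and 0.145% to 0.305% in those labelled low. Vegfa made up 59.4% to 63.0% and 50.2% to 60.6% of it under the high and the low label.

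**Figure D3:**
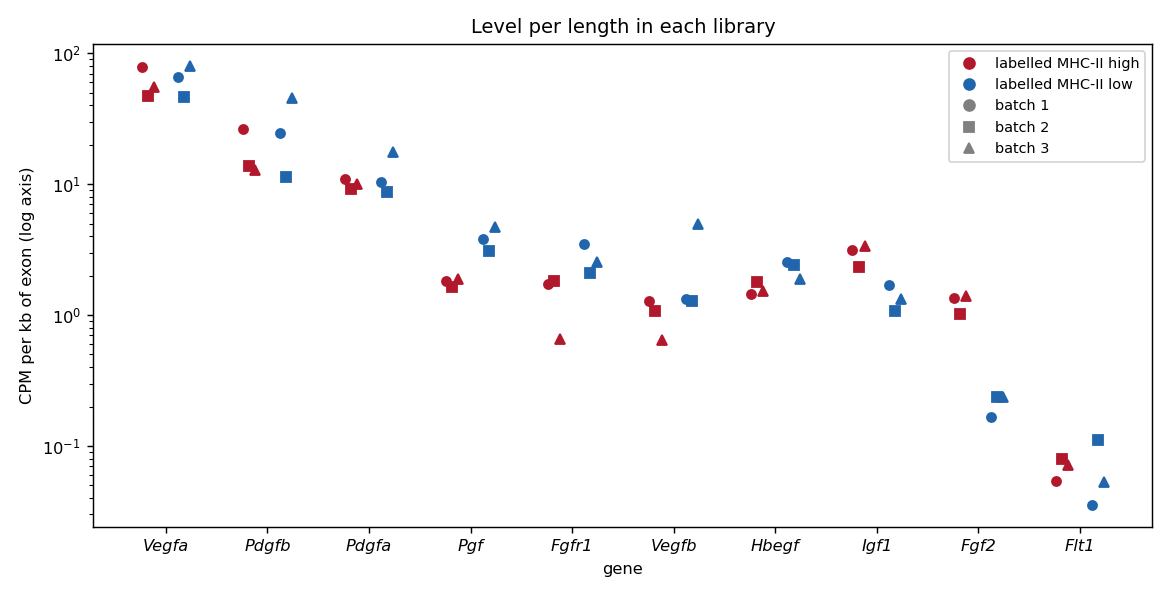
Level of each gene as CPM per kb of exon on a log axis, in libraries labelled MHC-II high (left of each pair) and labelled MHC-II low (right), with symbols for batches. Vegfa leads at about the same level in both labels, while Fgf2 averages 1.25 in the labelled high libraries and 0.212 in the others.

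GC content moved with the fold change across genes, which touches several of the 10. Over 14123 tested genes, which are not independent replicates, fold change and the GC content of the longest transcript had a Spearman correlation of -0.58, and CPM rose with GC content most steeply in labelled low replicates 3 and 1. Igf1 at 38.0% and Fgf2 at 42.2% had the lowest GC content of the 10 genes and were the 2 with positive fold changes. Vegfb at 62.6%, Pdgfb at 60.0%, Pgf at 56.3% and Fgfr1 at 55.4% had the highest. Tested genes within 1 percentage point of Fgf2 had a median log2 fold change of 0.25, and those near Igf1 one of 0.31, near Pgf one of -0.53 and near Pdgfb one of -0.68. With each library's GC trend taken out, Fgf2 stood at 2.38 (edgeR adjusted p 0.00501) and was the only 1 of the 10 called, against 2.52% of genes tested in that fit (0.828% higher and 1.69% lower). With the batch block added, Fgf2 was again the only one called, at 2.34, against 3.78% of genes (1.15% higher and 2.63% lower). With the GC offset alone, Pgf stood at -0.70 (adjusted p 0.117), Fgfr1 at -0.65 (0.373), Hbegf at -0.44 (0.308) and Vegfb at -0.52 (0.486).

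**Figure D4:**
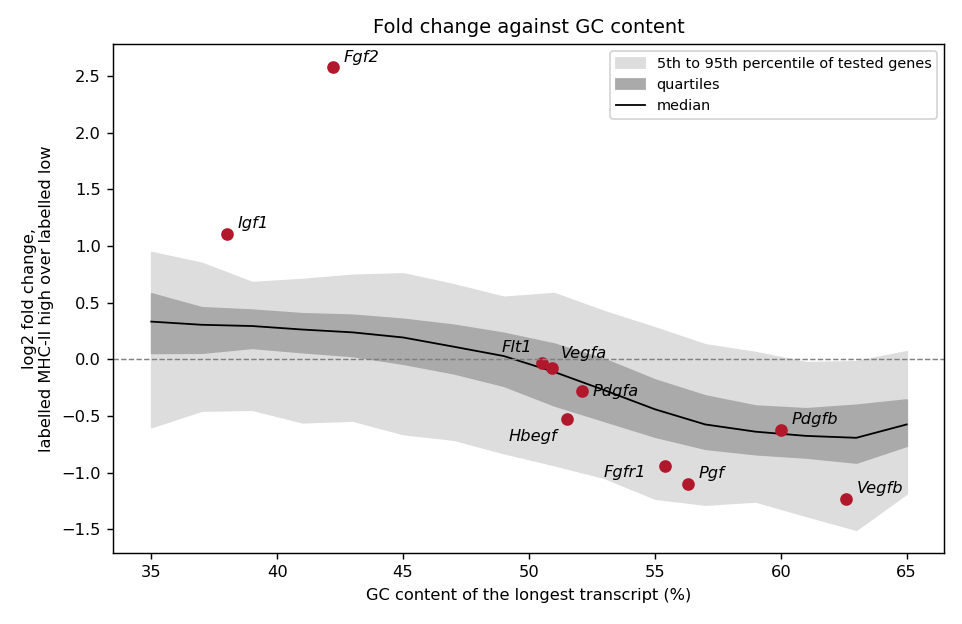
Log2 fold change, labelled MHC-II high over labelled MHC-II low, against the GC content of the longest transcript in percent. The line and the grey bands give the median, the quartiles and the 5th to 95th percentile of all tested genes in steps of 2 percentage points, and red points are the 10 genes. Pdgfb, Vegfa, Flt1 and Pdgfa lie near the median line, and Fgf2 at 2.58 lies far above the bands.

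Other genes of the pathways were taken from 11 lists that hold 174 symbols beside the 10 genes. Of these, 114 were tested and 0 were called by edgeR, with 10 on the higher and 19 on the lower side at an unadjusted p under 0.05, 4 higher and 5 lower calls by DESeq2 and 0 by limma-voom. Over all genes, 4.06% were higher and 7.99% lower at that unadjusted p, and DESeq2 called 0.693% higher and 1.72% lower, shares that stand behind the counts of each list below. The median log2 fold change of the 114 genes was -0.24.

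Downstream of FGF receptors, 0 of 20 tested adaptors and feedback genes were called by edgeR and by limma-voom, 4 had an unadjusted p under 0.05 and DESeq2 called 1. That gene was Etv1, an ETS transcription factor induced by FGF and ERK signalling, at 54.6, 56.2 and 57.9 CPM in the libraries labelled high, against 28, 31.7 and 18.7 CPM in those labelled low. The groups were well apart, with a log2 fold change of 1.09, an edgeR adjusted p of 0.11 and one of 0.0143 with the GC offset. Spry2, a feedback inhibitor of receptor signalling, stood at 24.6 ± 4.20 CPM under the high label and 15.1 ± 3.89 CPM under the low label, but Dusp5, an ERK phosphatase, at 21.2 ± 6.40 and 42.8 ± 14.5 CPM (edgeR adjusted p values of 0.378 and 0.298).

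Heparan sulphate genes were listed as carriers and modifiers of the chain, and only some of their products hold FGF2 at the cell surface. Their median log2 fold change was -0.72 over 19 tested, the lowest among the lists after the 2 tested receptors at -0.76. It does not measure how much FGF2 is held. Fold changes were negative for 16 and positive for 3, among them Hpse, the heparanase gene, at 38.4 ± 2.07 CPM under the high label and 28.5 ± 5.56 CPM under the low label. By edgeR and limma-voom 0 were called, 6 had an unadjusted p under 0.05, all lower, and DESeq2 called 2 lower, beside 7.99% and 1.72% of all genes on that side. The counts describe the list and were not tested against other genes. GC content of the tested genes in the list ran from 41.6% for Sdc2 to 60.9% for Hspg2. All tested genes of 40% to 42% GC content had a median log2 fold change of 0.263, and those of 60% to 62% one of -0.676. The part of GC content in the list median was not tested. Sdc4, the core protein syndecan 4, stood at 144, 163 and 144 CPM in the libraries labelled high, against 255, 237 and 307 CPM in those labelled low. Ndst1, which starts sulphation of the chain, stood at 99.4, 96.9 and 94.3 CPM, against 206, 158 and 362 CPM in the libraries labelled low. Neither gene overlapped between labels, the edgeR adjusted p values were 0.132 and 0.143, and both were called with the GC offset (0.0143 each, log2 fold changes of -0.85 and -0.93). Sdc1, another syndecan, and Hs3st3b1, a sulphotransferase gene, had the next smallest p values of the list. Sdc1 averaged 54.7 ± 7.87 CPM in labelled high and 103 ± 41.5 CPM in labelled low libraries, and Hs3st3b1 averaged 0.616 ± 0.191 and 1.80 ± 0.756 CPM. With the GC offset their log2 fold changes went from -0.91 to -0.51 and from -1.44 to -1.30, neither called (edgeR adjusted p values of 0.0599 and 0.166).

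**Figure D5:**
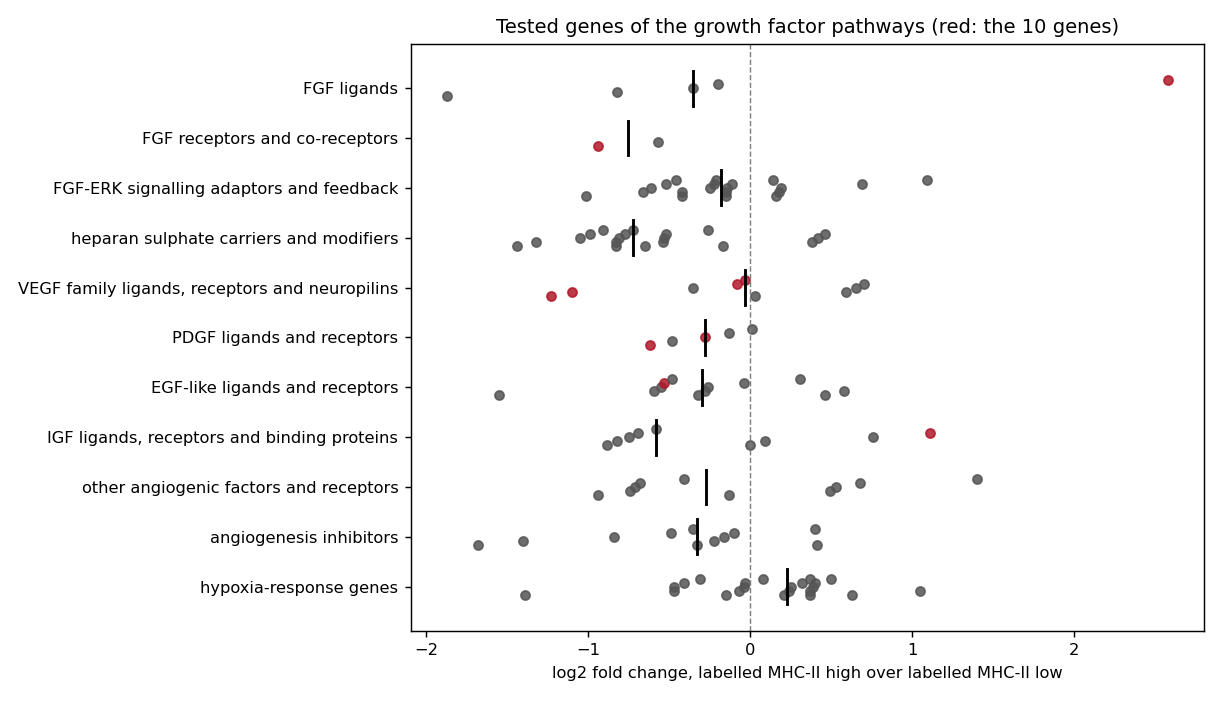
Log2 fold changes, labelled MHC-II high over labelled MHC-II low, of the tested genes in each pathway list; black bars are list medians and red points the 10 genes. Fgf2 at 2.58 is the largest value shown, and most heparan sulphate genes lie below 0.

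Among other angiogenic factors 0 of 10 tested were called by edgeR and by limma-voom, 3 had an unadjusted p under 0.05 and DESeq2 called 1. Ang, the ribonuclease angiogenin, stood at 4.51, 6.55 and 6.01 CPM in the libraries labelled high, against 2.18, 2.82 and 1.07 CPM in those labelled low. The labels did not overlap, with a log2 fold change of 1.40 and adjusted p values of 0.194 by edgeR and 0.0229 by DESeq2. Angpt2, the vessel-destabilising ligand of the receptor TEK, stood at 5.94 ± 0.721 CPM under the high label and 3.64 ± 0.537 CPM under the low label (edgeR adjusted p 0.382). Angptl4 stood at 1.2 ± 0.119 and 2.41 ± 0.865 CPM. Of 11 tested inhibitors of angiogenesis 0 were called by edgeR and by limma-voom, 3 had an unadjusted p under 0.05, all lower, and DESeq2 called Cxcl9. Thbs1, which encodes thrombospondin 1, stood at 330 ± 67.1 and 589 ± 227 CPM under the high and the low label, and Cxcl9, an interferon-induced chemokine gene, at 2.28 ± 0.898 and 7.60 ± 4.09 CPM.

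Hypoxia-response genes lay on both sides. Of 22 tested, 0 were called by edgeR and by limma-voom, 2 were higher and 2 lower at an unadjusted p under 0.05, DESeq2 called 1 in each direction, and the median log2 fold change was 0.22. Ankrd37, a target of hypoxia-inducible factor 1, stood at 27.2, 26.2 and 28.6 CPM in the libraries labelled high, against 9.16, 17.2 and 13.2 CPM in those labelled low. It did not overlap between labels, whereas Vegfa did (log2 fold change of Ankrd37 1.05, edgeR adjusted p 0.175). Ddit4, induced by hypoxia and other stress, lay on the other side at 10.4 ± 1.05 and 27.6 ± 14.7 CPM (-1.39, edgeR adjusted p 0.194). With the GC offset Ankrd37 was called at 1.12 (edgeR adjusted p 0.0448), beside 0.828% of genes called higher in that fit. Ddit4 was then at -0.85 and not called (edgeR adjusted p 0.0549).

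Markers of other cells that make or receive these factors were read beside them. Endothelial markers summed to 18.4 to 25.8 CPM in the libraries labelled high and 16.2 to 32.3 CPM in those labelled low, and 9 of 13, among them Tek, Tie1, Cldn5 and Erg, were too low to test. Kdr was the largest part of that sum in each library and averaged 13.4 CPM under the high label and 8.38 CPM under the low label. Cdh5 lay on the same side, at 2.18 and 1.88 CPM under the high and the low label. Pecam1, at 3.20 and 6.60 CPM without overlap, and Vwf, at 3.19 and 5.76 CPM, lay on the other side. Fibroblast and pericyte markers summed to 147 to 558 CPM under the high label and 326 to 641 CPM under the low label, and the sum was lowest in batch 3 under both. Its part in the Fgf2 values was not tested. Epithelial and carcinoma markers summed to 3.36 to 12.2 and 3.57 to 11.9 CPM under the high and the low label, with 0 reads of Krt5, Cldn4, Cldn7 and Nkx2-1. Neutrophil markers summed to 17.8 to 28.4 and 17.2 to 35.2 CPM, with 0 reads of Camp. In these 4 lists 0 genes were called by edgeR, DESeq2 and limma-voom, while 2, 1, 0 and 2 had an unadjusted p under 0.05 in that order.

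Dendritic cell markers parted with the labels. The 12 markers summed to 57.2 to 103 CPM in the libraries labelled high and 300 to 425 CPM in those labelled low, and none had 0 reads. Itgax alone made up most of this, at 50.5, 45.2 and 88.1 CPM in labelled high and 287, 241 and 385 CPM in labelled low libraries. All 9 tested had negative fold changes, and edgeR called 4 of them lower, beside 0.354% of all tested genes. DESeq2 called 8 of the list lower, beside 1.72% of all genes. Mast cell, basophil and eosinophil markers summed to 0.644 to 1.69 and 2.18 to 4.13 CPM, led by Kit, with 0 reads of Mcpt8 and Epx. Both sums lay on the same side as Fgfr1, Pgf and Hbegf and on the opposite side to Fgf2 and Igf1, and their part in these values was not tested.

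Genes most like Fgf2 were sought by the correlation of log2 CPM over the 6 libraries among 12612 tested genes of at least 1 CPM. The 5 highest were Taf12, Btg3, Gm10484, Pld1 and Clasp1, with Pearson correlations of 0.986 to 0.991 and log2 fold changes between labels of 0.10 to 0.85, none called by edgeR. Likeness over so few libraries is loose, since none of these 5 was among the 5 highest without labelled low replicate 3. Of the 10 genes, 9 were compared, without Flt1, whose mean was under 1 CPM. Among these, Igf1 was nearest to Fgf2 at 0.89, and Pgf and Hbegf ran the other way at -0.92 and -0.90. These correlations describe 6 libraries that differ mainly by label.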

How the data were processed

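Per the labels' protocols, stranded libraries were prepared from rRNA-depleted total RNA. The authors deposited unnormalised counts of reads for each Ensembl gene, with 1 table for each library. FastQC, Trimmomatic, STAR, HTSeq, DESeq2 and the build GRCm38 are named, without versions, per the submitters' processing notes. Neither the annotation release nor the strand setting is given in the sources used here. Reads assigned to no feature were 35.2% to 49.4%, ambiguous reads 0.324% to 0.864% and multiply aligned reads 7.6% to 17.4% of listed reads, and all stayed out of library sizes and tests.

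Symbols, exons and GC content came from GENCODE M21 (GRCm38), which matched 55227 of 55487 genes. Counts were tested with edgeR 4.0.16 in R 4.3.3 (TMM factors, the default low-count filter, quasi-likelihood test, labelled high over labelled low, adjusted p under 0.05 called), after a test on simulated data. Standard errors are the fold change over the root of F. CPM per kb divides by the union of exons. Batch ratios add 0.1 CPM, and ratios to Csf1r add 0.5 reads. Alternatives were RLE, total counts, DESeq2 1.42.0, limma-voom (3.58.1), other filters, a batch block, a GC offset (local regression of log2 CPM on GC content, span 0.4), exclusion of mitochondrial and rRNA genes, and leaving out libraries.

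The main edgeR test was not paired. Libraries were paired by number, which the labels give as the batch, only for batch ratios, the block and the fit without batch 3. Deviations from the label means correlated at 0.159, 0.335 and -0.116 for same-numbered libraries. For differently numbered ones they correlated at -0.489 to 0.353, so these values do not set same-numbered libraries apart. They hold the GC trends of the libraries, as no offset was applied, and so cannot decide whether libraries match by number. The summed fibroblast and pericyte markers were lowest in batch 3 under both labels, at 147 and 326 CPM. Over all genes, the block lowered the calls to 41 from 63 without the GC offset and raised them to 534 from 356 with it. Without the offset, it left 1 higher gene, Fgf2, of 13 in all. The 10 genes, the lists and the alternatives were chosen with earlier results of these data known. Pathway genes were named if called, or as up to 4 in a list by smallest p, at a mean of at least 1 CPM, and likeness took the 5 highest correlations.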

Additional observations from a re-analysis of the deposited data

How the results depend on the processing

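Over all genes, 13 were higher and 50 lower by edgeR. The higher count was 8 with total counts, 109 with DESeq2, 113 with no low-count filter, 1 with the replicate block, 117 with the GC offset, 163 with that offset plus the block, and 0 without batch 3, and 0 to 246 with 1 library left out. The lower count was 271 with DESeq2, 436 with no filter, 239 with the GC offset, 371 with that offset plus the block, and 28 without batch 3, and 8 to 784 with 1 library left out. The higher count was 0 without any 1 labelled high replicate or without labelled low replicate 1, where the lower count was 8 to 14, and both highest counts came without labelled low replicate 2. Among the 10 genes, 2 were higher with DESeq2 and with no filter and 0 without batch 3, and 0 to 2 with 1 library left out; 1 was lower with DESeq2, and 0 to 1 with 1 library left out. Among other pathway genes, higher and lower calls were 4 and 5 with DESeq2, 3 and 7 with no filter, 3 and 2 with the GC offset, and 4 and 6 with that offset plus the block, against 0 and 0; with 1 library left out they were 0 to 4 and 0 to 16. The cause was not tested.

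Fgf2 kept its direction in all 17 alternatives, from 2.34 to 2.84 (2.42 to 2.75 with 1 library left out), but was not called without batch 3 (2.55, edgeR adjusted p 0.0733). The differences relative to Csf1r were 2.77 to 3.34 with 1 library left out. For 47 other genes, 714 of 799 fits kept the direction and the call, 52 gained a call and 33 changed sign, all for uncalled genes. Vegfa was 0.30 with total counts, 0.01 with no filter and with the GC offset, and 0.18 without batch 3. Flt1 was 0.17 with total counts, 0.00 with DESeq2, 0.07 with limma-voom, 0.01 with no filter, 0.08 with the block and 0.09 with that plus the GC offset. Pdgfa was 0.14 with total counts and 0.08 without batch 3, Pdgfb 0.04 with the GC offset and also with the block added, and 0.16 without batch 3, and Fgf7 0.19 with the block. Without batch 3 Pdgfc was -0.08 and Rhbdf2 0.20, and Rhbdf2 was 0.01 with the GC offset and 0.02 with the block added. With 1 library left out the ranges were -0.29 to 0.11 for Vegfa and -0.37 to 0.75 for Flt1, -0.43 to 0.07 for Pdgfa, -0.56 to 1.22 for Fgf7, -0.67 to 0.14 for Vegfd, -0.70 to 0.42 for Pdgfra and -0.13 to 0.27 for Pdgfc. The replicate block gave 40 lower calls over all genes, against 50, and it changed no other call among the 10 genes and the other pathway genes. Lengths of the longest transcript moved the level per length of 6 genes by more than 1 SD, such as Fgfr1 (2.76 in labelled high, 5.29 in labelled low libraries). Depth limits Flt1, and Fgf2 under the low label, most.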
